A study of Equus caballus with 25 samples.

Results

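The receptor genes IL4R, IL6ST, IL10RA and IL18R1 were followed in BAL cells of horses with asthma and of healthy horses. Bronchoalveolar lavage (BAL) washes cells out of the lower airways, and RNA from these cells was hybridized to a custom one-color array with 1 array per horse. The CTRL group held 7 healthy horses (labelled Control), the MEA group 10 horses with mild to moderate equine asthma (labelled IAD) and the SEA group 8 horses with severe equine asthma (labelled RAO). Horses of both sexes were included in each group, all were sampled once and none was given an experimental treatment. Per the methods, the SEA-affected horses were older as a group than the others, all CTRL horses were standardbreds and most asthmatic horses were saddle horses, and the MEA group was limited to horses with neutrophilic lavage fluid. Age can therefore not be told apart from the diagnosis in comparisons with SEA, and breed overlapped between the groups only in part. Every horse was a clinical case or a volunteer and not an induced model, and the lavage cells were not sorted. In such a mixture, fewer cells of a type and less RNA per cell cannot be told apart.

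The 4 genes were covered by 5 of the 7238 transcripts on the array: ENSECAT00000023156 for IL4R, ENSECAT00000021352 and ENSECAT00000021367 for IL6ST, ENSECAT00000015798 for IL10RA and ENSECAT00000007494 for IL18R1. All 5 were among the 4930 transcripts that passed the intensity filter and were tested. The identifiers of IL4R, IL6ST and IL18R1 were paired with a symbol in the study's list of transcripts changed in SEA, and that of IL10RA in its list for MEA. These lists were drawn from the same horses, so that a rise of a receptor in the disease whose list named it is not independent evidence, and further transcripts of the 4 genes may be on the array without a symbol.

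All 4 genes encode chains of cytokine receptors on the cell surface. IL4R is the alpha chain shared by the receptors for IL-4 and IL-13, the cytokines of type 2 immunity, and it signals through STAT6 after pairing with the common gamma chain (IL2RG) or with an IL-13 receptor chain. IL6ST, also called gp130, is the signal chain shared by the receptors of the IL-6 family, including oncostatin M (OSM), leukemia inhibitory factor and cardiotrophin-like cytokine factor 1 (CLCF1). It acts mainly through STAT3, and SOCS3 is the inducible inhibitor that binds it. IL10RA binds the anti-inflammatory cytokine IL-10 and needs IL10RB to signal. IL18R1 binds IL-18 and signals through the adaptor MYD88 once IL18RAP has joined the complex, while IL18BP is the soluble protein that holds IL-18 away from it. In the lavage of a healthy horse the alveolar macrophage is the main cell, and neutrophils enter in asthma.

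The levels below rest on these probes, which are printed because the measurement of each receptor is the signal of a single 60-base oligonucleotide, spotted 2 times on every array.
IL4R: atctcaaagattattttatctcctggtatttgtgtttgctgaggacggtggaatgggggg
IL6ST: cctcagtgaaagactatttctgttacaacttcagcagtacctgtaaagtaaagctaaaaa
IL10RA: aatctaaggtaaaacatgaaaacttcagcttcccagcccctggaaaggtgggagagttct
IL18R1: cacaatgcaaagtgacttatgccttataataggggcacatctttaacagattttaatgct
The IL6ST line stands for both IL6ST transcripts, since their probes have the same 60 bases. The 2 IL6ST values of a horse are thus repeat readings of 1 oligonucleotide on 4 spots, and the 5 transcripts hold 4 distinct sequences. On the whole array 976 of the 7238 transcripts (13.5%) shared a probe sequence with another one, which left 6693 distinct sequences. GC content was 35% in the IL6ST and IL18R1 probes, 43.3% in the IL4R probe and 45% in the IL10RA probe, against a median of 45% over all distinct sequences. Positions in the genome are not given, because no annotation used here pairs these identifiers with a place on a horse assembly.

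Levels are log2 intensities normalized over the 25 arrays, and since every probe binds with its own strength a level was compared between horses and never between probes. Both spots of the IL4R, IL6ST and IL10RA probes were well above background on all 25 arrays. Those of IL18R1 were so on all 8 SEA arrays, on 5 of 7 CTRL arrays and on 5 of 10 MEA arrays, with 1 spot on a further MEA array, so that the lowest IL18R1 values have no reliable order. The share of all spots well above background was 63.5% to 90.4% in CTRL, 58.2% to 84.1% in MEA and 66.6% to 90.8% in SEA, and precision is limited by how many arrays a group holds. MEA replicate 3 stood apart from the other MEA-affected horses in 7 of the partner transcripts described below, and SEA replicate 1 from the other SEA-affected horses in 2, and values without these horses are given where results rest on them. The arrays lay on 4 slides, and slide 4 held 5 of the 10 MEA arrays with 1 CTRL and 1 SEA array.

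**Figure D1:**
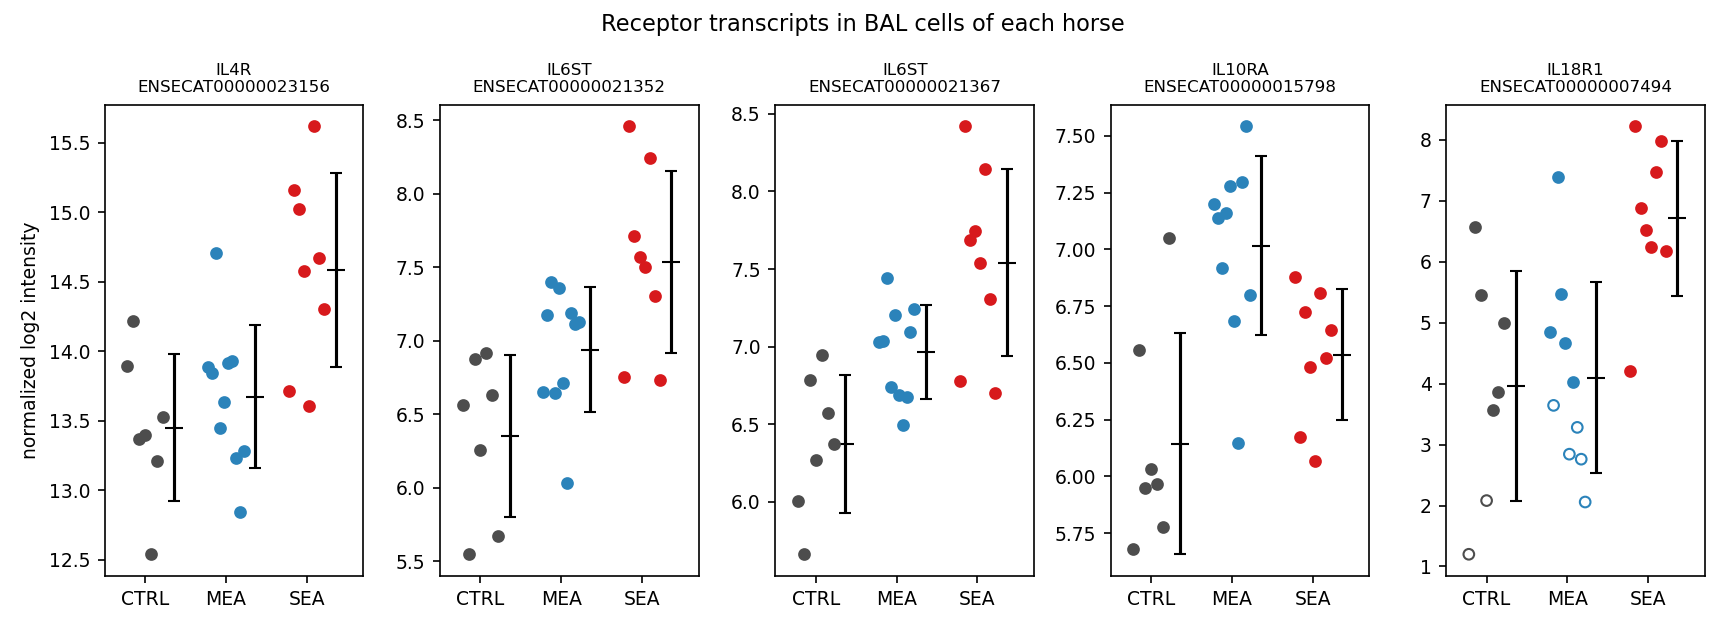
Normalized log2 intensity of the 5 receptor transcripts in each horse of the CTRL (n = 7), MEA (n = 10) and SEA (n = 8) groups, with the group mean and its SD as a bar; open circles are arrays on which not both spots of the probe were well above background. The group mean is highest in SEA for IL4R, IL6ST and IL18R1 and highest in MEA for IL10RA, and the vertical axes differ between panels.

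Which receptors were raised in SEA, in MEA or in both was asked by comparing each disease with CTRL. A transcript counted as called when its false discovery rate was under 0.1 and its level changed by 1.5-fold or more. The adjusted p values of group differences are those of limma, adjusted by Benjamini-Hochberg over the 4930 transcripts. In SEA against CTRL, 4 of the 5 receptor transcripts were called higher (IL4R, both of IL6ST and IL18R1), and 16.0% of all tested transcripts were called higher in that comparison. In MEA against CTRL, 2 of the 5 were called higher (IL10RA and 1 of IL6ST), against 3.25% of all tested transcripts. Directly between the diseases, IL18R1 alone was called higher in SEA, against 1.44% of all tested transcripts. By limma, no receptor transcript was called lower in any of these comparisons, in which 16.7%, 6.53% and 0.791% of all tested transcripts were called lower, and at an unadjusted p below 0.05 only IL10RA was lower, in SEA against MEA, where a fit with array weights called it (-0.73, adjusted p = 0.0131) and a rank sum test did not. Both disease comparisons use the same 7 CTRL arrays, so their values are set side by side and the direct comparison is the test of a difference between the diseases.

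**Figure D2:**
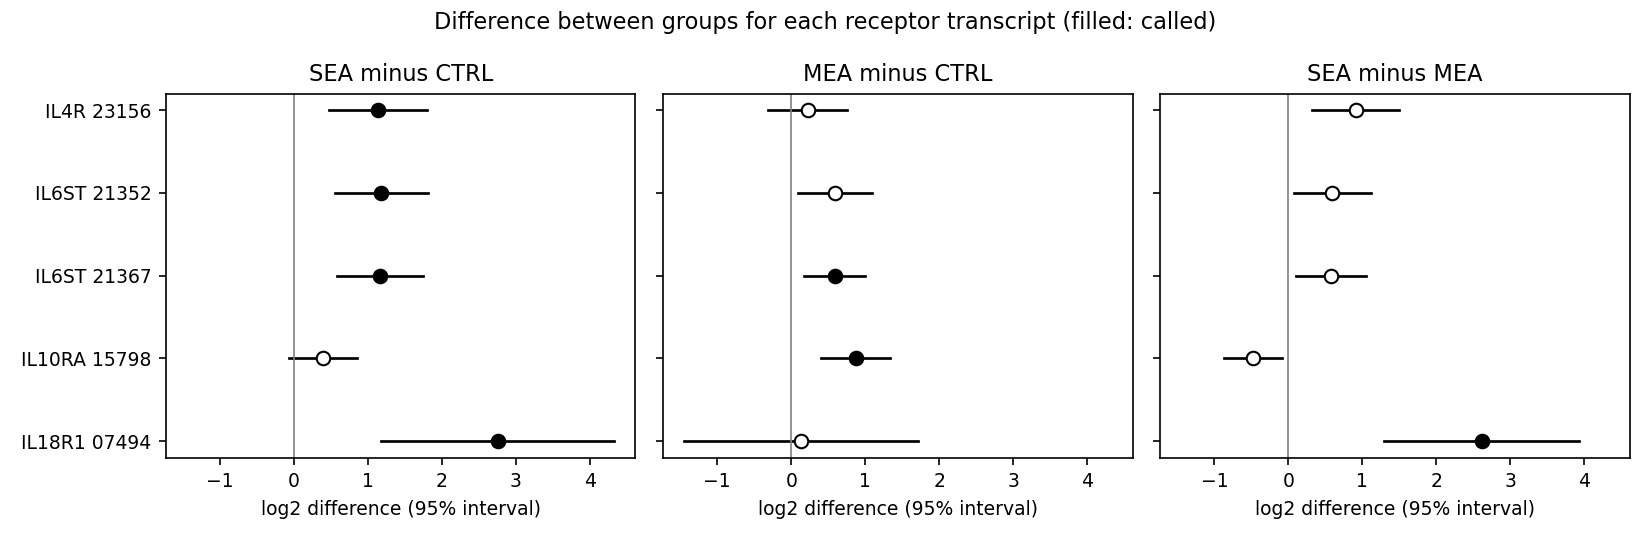
Difference in log2 intensity between groups (points) with its 95% interval from limma (bars) for each receptor transcript; filled points were called (false discovery rate under 0.1, change of 1.5-fold or more). In SEA against CTRL all points but IL10RA are filled, in MEA against CTRL those of IL10RA and 1 IL6ST transcript, and in SEA against MEA that of IL18R1, while IL10RA lies below 0.

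IL4R was higher in SEA than in CTRL by 1.14 on the log2 scale, a fold change of 2.20. The lowest, median and highest levels were 12.54, 13.39 and 14.22 in CTRL, 12.85, 13.74 and 14.71 in MEA and 13.60, 14.63 and 15.62 in SEA. All 8 horses with SEA exceeded the CTRL mean and 6 of them exceeded every CTRL horse, and SEA replicates 1 and 5 overlapped the CTRL range. The means were 13.45 ± 0.53 (SD, n = 7) in CTRL and 14.58 ± 0.70 (SD, n = 8) in SEA, and the difference had an SE of 0.31, a 95% interval from 0.47 to 1.80 and an adjusted p of 0.0184. In MEA the mean was 13.67 ± 0.51 (SD, n = 10), a difference from CTRL of 0.22 with an interval from -0.31 to 0.76 (adjusted p = 0.618). MEA therefore overlapped CTRL almost completely, and the interval leaves room for a rise of up to 0.76. Between the diseases IL4R was 0.91 higher in SEA (SE 0.28, adjusted p = 0.114), which missed the threshold; without MEA replicate 3 this difference was 1.03 (adjusted p = 0.0356), without SEA replicate 1 it was 1.03 (adjusted p = 0.0515) and without MEA replicate 5 it was 0.91 (adjusted p = 0.0969).

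Within slides, IL4R was higher in SEA than in CTRL on slide 2 by 1.44 and on slide 3 by 1.86, each with 3 SEA and 2 CTRL arrays. On slide 4 the 1 SEA array lay 0.78 above the 1 CTRL array, and on slide 1 the 1 SEA array lay below the mean of 2 CTRL arrays (-0.34). With slide as a blocking factor the difference was 1.15 (adjusted p = 0.0222).

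IL6ST was the receptor with a called difference in both diseases, in SEA by both of its readings and in MEA by 1 of them. For ENSECAT00000021352 the lowest, median and highest levels were 5.55, 6.57 and 6.92 in CTRL, 6.03, 7.12 and 7.40 in MEA and 6.73, 7.54 and 8.46 in SEA. The second reading, ENSECAT00000021367, gave 5.66, 6.38 and 6.95 in CTRL, 6.49, 7.03 and 7.44 in MEA and 6.70, 7.61 and 8.42 in SEA. By either reading, 6 of 8 horses with SEA and 6 of 10 with MEA exceeded every CTRL horse, and SEA replicates 1 and 8 were the SEA-affected horses inside the CTRL range. Averaged over both readings, CTRL had a mean of 6.36 ± 0.47 (SD, n = 7), MEA one of 6.95 ± 0.34 (SD, n = 10) and SEA one of 7.54 ± 0.61 (SD, n = 8).

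SEA exceeded CTRL in IL6ST by 1.18 (SE 0.30, adjusted p = 0.0147) and 1.17 (SE 0.27, adjusted p = 0.0121), fold changes of 2.27 and 2.24. With normexp, a background correction fitted to the raw spot signals in place of the scanner software's own, these differences were 0.72 and 0.66, still called, and those of MEA below were 0.29 and 0.28, not called. MEA exceeded CTRL by 0.59 in both readings, fold changes of 1.5 and 1.51 that sit at the fold limit. Of these, ENSECAT00000021367 was called (SE 0.20, 95% interval 0.18 to 1.0, adjusted p = 0.0866) and ENSECAT00000021352 was not (SE 0.24, interval 0.09 to 1.09, adjusted p = 0.155). As the probe is the same, these 2 outcomes are no difference between transcripts. The MEA call of ENSECAT00000021367 was lost in 11 of the 17 fits that left out 1 horse (CTRL replicates 1, 2, 4 and 6, and all MEA replicates other than 6, 7 and 8), with differences of 0.47 to 0.62 and an adjusted p of up to 0.199. It was also lost with 1 value per probe sequence (adjusted p = 0.103) and with slides as blocks (0.59, adjusted p = 0.164), while ENSECAT00000021352 was called without MEA replicate 7 (0.69, adjusted p = 0.0587). Between the diseases IL6ST was higher in SEA by 0.59 (adjusted p = 0.190) and 0.58 (adjusted p = 0.171), neither of which was called. Without SEA replicate 1 the second reading was called (0.68, adjusted p = 0.0906), as it was without MEA replicate 3 (0.63, adjusted p = 0.0999).

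The repeat readings of the IL6ST probe agreed less well on slide 4 than on the others. The range over the 4 spots of an array had a median of 0.52 on slide 1, 0.23 on slide 2, 0.14 on slide 3 and 1.36 on slide 4, where it ran from 0.18 in MEA replicate 9 to 2.01 in MEA replicate 8. For all tested transcripts the median difference between the 2 spots of a probe was 0.29, 0.13, 0.10 and 0.26 on slides 1 to 4. The 2 IL6ST transcript values of a horse differed by a median of 0.09 and by at most 0.70, in CTRL replicate 7, the CTRL array of slide 4. By slide, SEA minus CTRL in ENSECAT00000021352 was 0.70, 1.01, 1.25 and 1.06, and MEA minus CTRL was 0.85, 0.42, -0.04 and 1.3 on slides 1 to 4, with 1 to 5 arrays a group. In ENSECAT00000021367, SEA minus CTRL was 0.94, 1.05, 1.28 and 0.33, and MEA minus CTRL was 1.2, 0.36, 0.01 and 0.61. SEA minus MEA for ENSECAT00000021352 was -0.16 and -0.24 on slides 1 and 4, with 1 SEA array each, and 0.59 and 1.29 on slides 2 and 3. Without the 7 arrays of slide 4, SEA exceeded CTRL by 1.18 (adjusted p = 0.0187) and 1.29 (adjusted p = 0.0136).

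**Figure D3:**
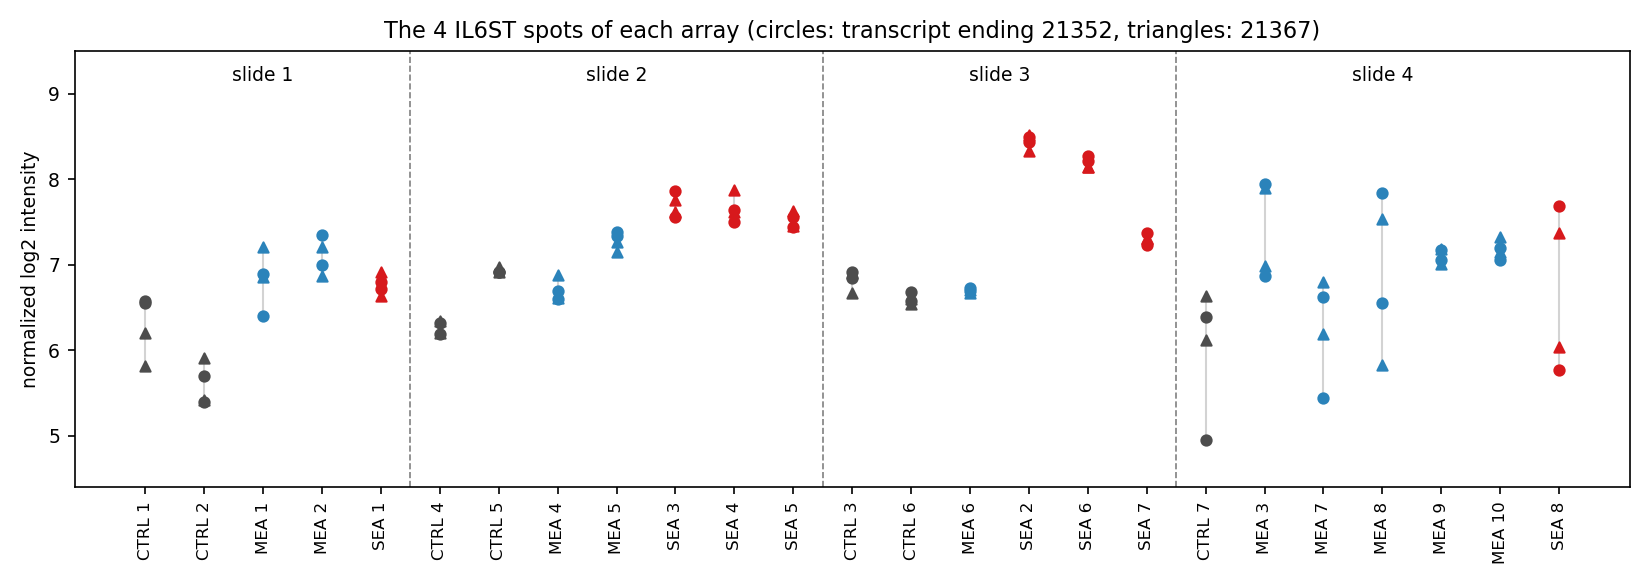
Normalized log2 intensity of the 4 spots that carry the IL6ST oligonucleotide on each of the 25 arrays, ordered by slide; circles are spots of ENSECAT00000021352, triangles of ENSECAT00000021367, black is CTRL, blue MEA and red SEA. On slides 2 and 3 the 4 spots lie within 0.38 of each other on every array, whereas on slide 4 they span up to 2.01.

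IL10RA had its highest mean in MEA, where it was called higher than in CTRL. Its lowest, median and highest levels were 5.68, 5.96 and 7.05 in CTRL, 6.15, 7.15 and 7.54 in MEA and 6.07, 6.58 and 6.88 in SEA. All 10 horses with MEA exceeded the CTRL mean and 6 exceeded CTRL replicate 7, the highest of its group, while none of the 8 horses with SEA did. CTRL had a mean of 6.14 ± 0.49 (SD, n = 7) and MEA one of 7.02 ± 0.40 (SD, n = 10), a difference of 0.87 (SE 0.22, 95% interval 0.41 to 1.34, adjusted p = 0.0351) and a fold change of 1.83. The SEA mean of 6.54 ± 0.29 (SD, n = 8) differed from CTRL by 0.39 (interval -0.07 to 0.85, adjusted p = 0.188), which was not called. Every SEA-affected horse lay below the MEA mean, and the difference of SEA minus MEA was -0.48 (SE 0.19, interval -0.87 to -0.09), but it missed the threshold at an adjusted p of 0.170.

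The MEA difference of IL10RA was 1.05, 1.22 and 0.82 within slides 1, 2 and 3. On slide 4, where 5 MEA arrays met the single CTRL array with the highest CTRL level, it was -0.11. With slides as blocks it was 0.78 and no longer called (adjusted p = 0.123), without the arrays of slide 4 it was 1.1 (adjusted p = 0.0223), and with normexp background correction it was 0.34 (adjusted p = 0.184). It was called in all 17 fits that left out 1 horse, with an adjusted p of 0.0957 at most.

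In SEA against CTRL, IL18R1 had the largest difference of the 4 genes, on a probe near the limit of detection, except with normexp background correction, where that of IL4R was larger (1.18). The lowest, median and highest levels were 1.2, 3.86 and 6.57 in CTRL, 2.06, 3.83 and 7.40 in MEA and 4.21, 6.71 and 8.22 in SEA. In CTRL the values were spread from 1.2 in replicate 1 to 6.57 in replicate 2, all 8 horses with SEA exceeded the CTRL mean and 4 of them exceeded every CTRL horse. SEA replicates 1, 4, 5 and 8 lay inside the CTRL range, with replicate 1 the lowest at 4.21. MEA replicate 3, at 7.40, was the only MEA-affected horse above the SEA mean. MEA replicates 1 (4.85), 4 (5.48) and 5 (4.66) also lay inside the SEA range. The mean was 3.96 ± 1.89 (SD, n = 7) in CTRL and 6.72 ± 1.27 (SD, n = 8) in SEA, a difference of 2.75 (SE 0.74, 95% interval 1.18 to 4.33, adjusted p = 0.0175) and a fold change of 6.75. By size of the difference it was number 18 of the 4930 transcripts in that comparison. The size depended on how low signals were treated, since normexp gave 0.87 (adjusted p = 0.0508), while the call held there and in each fit that left out 1 horse (2.29 to 3.19).

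In MEA, IL18R1 had a mean of 4.1 ± 1.57 (SD, n = 10) and differed from CTRL by 0.14 (95% interval -1.45 to 1.72, adjusted p = 0.930). The sign of this difference turned without MEA replicate 3 (-0.23), MEA replicate 4 (-0.02), CTRL replicate 1 (-0.32) or CTRL replicate 4 (-0.18), and the interval holds changes as large as those of the other receptors in either direction. Against MEA, the SEA level was 2.62 higher (SE 0.63, interval 1.3 to 3.93, adjusted p = 0.0709), a fold change of 6.13, with 8 of 8 SEA-affected horses above the MEA mean. Leaving out any 1 of 11 horses (SEA replicates 2, 3, 4, 5, 7 and 8 and MEA replicates 2, 7, 8, 9 and 10) ended this call, with differences of 2.39 to 2.69 and an adjusted p of up to 0.169. It was 2.98 without MEA replicate 3 (adjusted p = 0.0142), 2.16 with slides as blocks (adjusted p = 0.270) and 0.92 with normexp background correction (adjusted p = 0.199). By slide, SEA minus CTRL was 0.32, 3.72, 3.24 and 1.19, and SEA minus MEA was -0.04, 1.48, 5.05 and 2.28 on slides 1 to 4.

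Partner chains, ligands, inhibitors and related receptors were followed next, with the symbols of the study's lists, which again hold only transcripts chosen for a change in these horses. Of 32 such transcripts, 28 passed the intensity filter (1 transcript each of IL2RB, IL21R, IL36RN and IL1RAP did not). IL18RAP and CLCF1 passed it only through their SEA arrays, so their calls in comparisons with SEA are not independent of the filter. In SEA against CTRL, 25 of the 28 were called higher (16.0% of all tested transcripts were), LIFR was called lower (against 16.7%), and IRS2 and IL1R2 were not called, with a median difference of 1.4 against -0.01 over all tested transcripts. In MEA against CTRL, 2 of the 28 were called, both higher (against 3.25%), with a median difference of 0.37 against 0.03 over all tested transcripts. Between SEA and MEA, CLCF1 was the 1 transcript called, higher in SEA (against 1.44%), and the median difference was 0.94 against -0.04. The SEA count was 13 with normexp and 16 at an adjusted p below 0.05 or without CTRL replicate 1. The MEA count was 0 with normexp, the epithelial percentage as a covariate or the replicate number as a block (the replicate block), and 4 without MEA replicate 7 or without slide 4. The count between SEA and MEA was 20 with array weights, 18 without MEA replicate 3, 13 without SEA replicate 1 and 0 with slides as blocks.

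In SEA, IL2RG, the chain that pairs with IL4R, rose by 0.70 (adjusted p = 0.0846), from 7.79 ± 0.49 (SD, n = 7) in CTRL to 8.48 ± 0.65 (SD, n = 8). The list of IL-4 receptor partners and relatives held 4 tested transcripts, IL2RG, the IL-2 receptor chain IL2RA (1.61), CRLF2 of the TSLP receptor (1.99) and the signaling adaptor IRS2 (0.58), and all but IRS2 were called. STAT5A, a transcription factor that gamma chain receptors activate, rose by 0.84 (adjusted p = 0.0583) in SEA, and all 4 shared signal parts were called higher. Both spots of STAT5A were well above background on 5 of 7 CTRL and 8 of 8 SEA arrays. The IL2RG call was lost in 9 of the 15 fits that left out 1 horse (CTRL replicates 1, 3, 4 and 6 and SEA replicates 1, 2, 3, 4 and 7, differences of 0.55 to 0.72), with slides as blocks (0.69, adjusted p = 0.113), with sex or the epithelial percentage as a covariate, with no filter and with normexp (0.49). That of STAT5A was lost without CTRL replicate 1 (0.71), CTRL replicate 6 (0.80) or SEA replicate 7 (0.73) and with quantile normalization (0.66, adjusted p = 0.236), the 75th percentile (0.58), the authors' values (0.71), the epithelial percentage as a covariate (0.74) and normexp (0.22).

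On the side of gp130, the ligand and feedback genes rose in SEA while one receptor partner fell. OSM, a ligand that signals through gp130, was 2.19 higher (SE 0.77, adjusted p = 0.0445), with CTRL horses between 8.08 and 11.18 and SEA-affected horses between 7.17 and 13.44. The wide SEA range comes from SEA replicate 1, which lay at 7.17 below every CTRL horse, while the other SEA-affected horses lay between 11.10 and 13.44. CLCF1 was 1.57 higher (SE 0.30, adjusted p = 0.00539), with CTRL horses between 2.88 and 4.70 and SEA-affected horses between 4.88 and 6.37. The spots of CLCF1 were well above background on only 4 of 7 CTRL arrays, and with normexp the difference was 0.39, below the fold limit and no longer called. SOCS3 was 2.44 and 2.32 higher (adjusted p = 0.0128 and 0.0165) by 2 transcripts that carry the same oligonucleotide, and 1.42 and 1.36 higher with normexp. LIFR, the leukemia inhibitory factor receptor that forms a signaling pair with gp130, was 0.91 lower on the log2 scale in SEA (difference -0.91, SE 0.30, adjusted p = 0.0366), from 5.02 ± 0.80 in CTRL to 4.11 ± 0.38 in SEA, with spots well above background on 6 of 7 CTRL and 5 of 8 SEA arrays. With normexp the LIFR difference was -0.20 and not called (adjusted p = 0.127).

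IL10RB, which IL10RA needs to signal, rose by 0.90 in SEA (SE 0.28, adjusted p = 0.0282), where IL10RA was not called. In MEA, where IL10RA was called, IL10RB differed from CTRL by 0.42 (adjusted p = 0.341). CTRL replicate 1 lay at 11.75, the lowest IL10RB level of the group, whose highest was 13.03.

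The IL-18 system changed in several parts in SEA. IL18RAP, the signaling partner of IL18R1, rose by 2.05 (SE 0.77, adjusted p = 0.0589), with levels of 2.53 to 5.25 in CTRL and 1.37 to 7.84 in SEA, and SEA replicate 1 was again the low horse. Both spots of IL18RAP were well above background on only 5 of 7 CTRL and 7 of 8 SEA arrays, so its lowest values are not reliable. Its call was lost without CTRL replicate 1 (1.85), CTRL replicate 4 (1.86) or SEA replicate 2 (1.75) and with the 75th percentile (1.71, adjusted p = 0.187), and with normexp the difference was 0.69. The ligand IL-18, listed as IL18_HORSE, rose by 1.15 (SE 0.40, adjusted p = 0.0432). Its soluble inhibitor IL18BP rose by 2.5 (SE 0.58, adjusted p = 0.0115), from 11.42 ± 1.23 (SD, n = 7) to 13.92 ± 1.21 (SD, n = 8). Of the 8 tested IL-18 and IL-1 family transcripts 7 were called higher in SEA. In the same comparison TNFRSF1B, a receptor for TNF, rose by 2.14 (adjusted p = 0.00723) and CSF3R, the G-CSF receptor of neutrophils, by 2.53 (SE 0.97, adjusted p = 0.0633). The CSF3R call was lost in 7 of the 15 fits that left out 1 horse (CTRL replicates 1, 4, 5 and 6 and SEA replicates 2, 6 and 7, differences of 2.14 to 2.43) and with normexp (2.06, adjusted p = 0.144).

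The 2 transcripts of the list called in MEA were IL1RAP, the accessory chain of the IL-1 receptor, and PTPN2, a phosphatase that acts on cytokine receptor signaling. IL1RAP rose by 0.92 (SE 0.28, adjusted p = 0.0674) in MEA and by 1.22 (adjusted p = 0.0129) in SEA. Its MEA call was lost when 1 of CTRL replicates 1, 4 and 6 or of MEA replicates 2 and 5 was left out (0.80 to 0.93), with slides as blocks (0.94, adjusted p = 0.142), with normexp (0.62, adjusted p = 0.306) and by the rank sum test (adjusted p = 0.112). PTPN2 rose by 0.75 (SE 0.18, adjusted p = 0.0251) in MEA and by 0.74 (adjusted p = 0.0128) in SEA. Its MEA call was lost with normexp (0.56, below the fold limit), the epithelial percentage as a covariate (0.75, adjusted p = 0.211) and the replicate block (0.84, adjusted p = 0.124), and the diseases differed in it by -0.01 (SE 0.18). CLCF1, called between the diseases, was 1.56 higher in SEA than in MEA (SE 0.38, adjusted p = 0.0715), and 1.27 (adjusted p = 0.277) with slides as blocks and 0.35 (adjusted p = 0.232) with normexp. This call was also lost in 11 of the 18 fits that left out 1 horse (SEA replicates 2, 3, 4, 5, 7 and 8 and MEA replicates 2, 7, 8, 9 and 10, differences of 1.4 to 1.66).

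**Figure D4:**
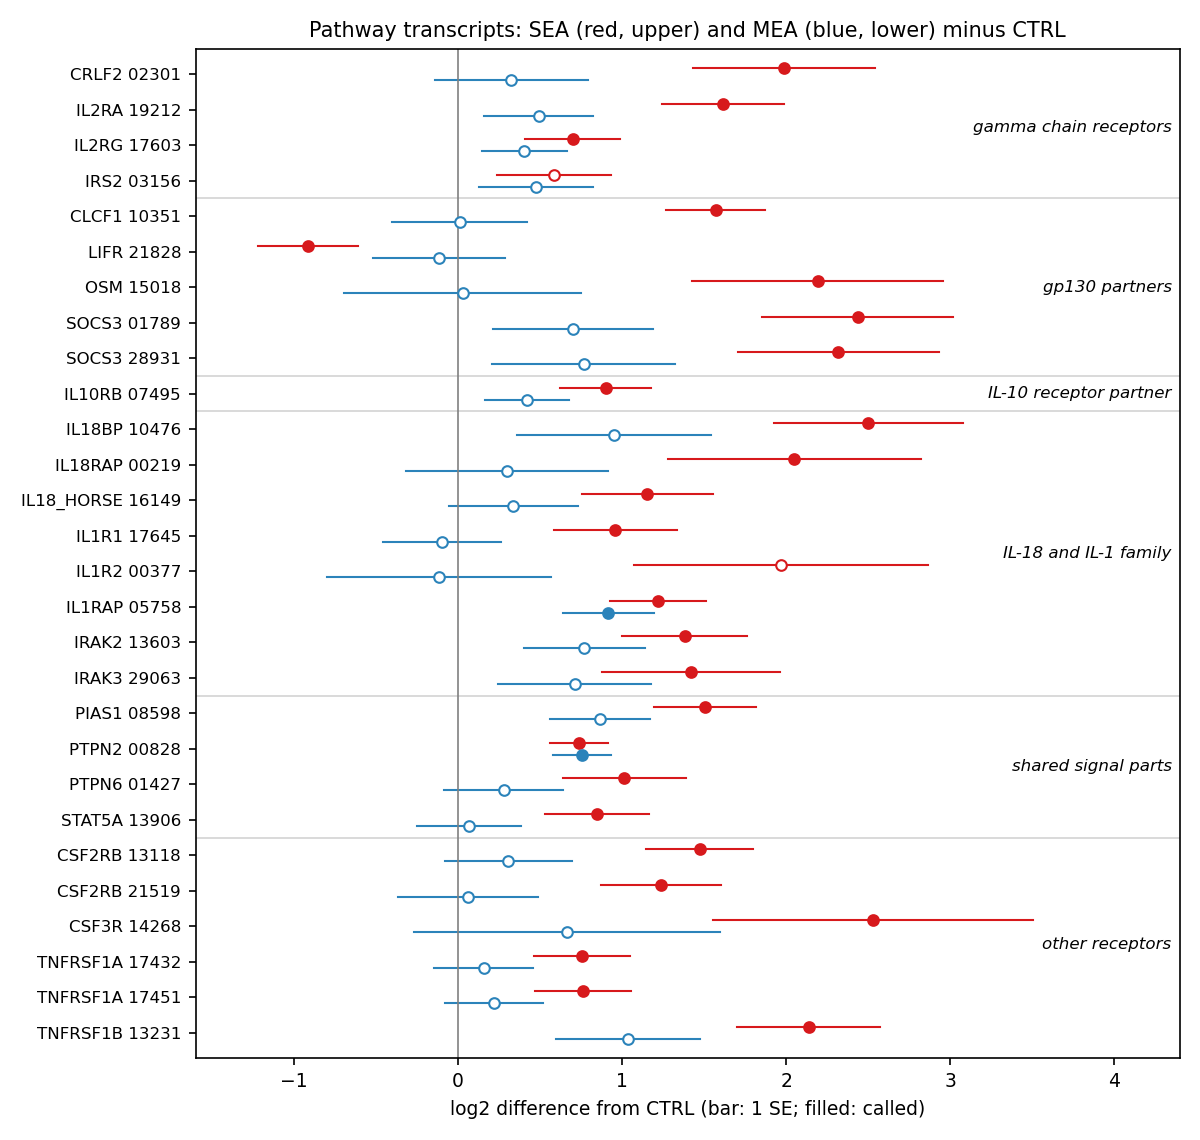
Difference in log2 intensity from CTRL in SEA (red, upper point) and MEA (blue, lower point) for the 28 tested partner and pathway transcripts, grouped by role, with 1 SE as a bar and filled points where called; the digits are the last 5 of the transcript identifier. In SEA all points but LIFR lie to the right of 0 and 25 of them are filled, and in MEA those of IL1RAP and PTPN2 are filled.

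Markers of the cell types in the lavage were compared between groups as well, and their part in the receptor differences was not tested. They too could be found only in the study's lists of transcripts changed in these horses, so their calls are not independent evidence. Of all tested transcripts, 16.0% were called higher and 16.7% lower in SEA, and 3.25% higher and 6.53% lower in MEA. Of 4 neutrophil markers, 3 were called higher in SEA (CSF3R, NCF1 and MMP9) and LTF, lactoferrin of the neutrophil granules and of glands, was called lower (-2.10). The mean level of these 4 ranged from 7.55 to 10.28 in CTRL, 7.73 to 11.86 in MEA and 6.92 to 11.47 in SEA, and in MEA LTF was the 1 marker called (-1.77). Of 5 macrophage transcripts, CD68 was called higher in SEA and both SIGLEC1 transcripts in MEA, while MARCO and VSIG4 were not called. The macrophage list ranged from 8.43 to 10.37 in CTRL, 8.81 to 10.72 in MEA and 8.89 to 10.22 in SEA, and MARCO and CD68 were well above background on all arrays. Of 6 lymphocyte transcripts, 3 were called higher and 1 lower in SEA and the 6 differences in MEA ran from -0.94 to 0.03, with list levels of 7.09 to 8.71 in CTRL, 6.46 to 8.18 in MEA and 5.88 to 8.78 in SEA. All 6 epithelial transcripts were called lower in SEA and 4 of 6 in MEA, the list falling from 8.30 to 10.30 in CTRL to 6.94 to 9.46 in MEA and 4.90 to 8.64 in SEA. No marker list was at background, although CDH1 had spots well above background on 7 of 7 CTRL, 5 of 10 MEA and 3 of 8 SEA arrays.

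The genes whose levels followed each receptor most closely from horse to horse were found after the group means had been removed, by Pearson r over the 25 arrays among 1684 tested transcripts with a symbol. As a description, IL4R was followed by CCNL1 (r = 0.80), STK38L (0.80) and TRPM2 (0.78). For IL6ST the lysosomal membrane gene LAMP2 was among the 3 closest by both readings (r = 0.72 and 0.73), beside BCLAF1 (0.77) and NRBF2 (0.67) for one and TNFAIP8 (0.76) and CYFIP2 (0.71) for the other. Inside CTRL, r of LAMP2 was -0.0046 with ENSECAT00000021352 and 0.51 with ENSECAT00000021367, and inside MEA and SEA it was 0.65 to 0.93. IL10RA was followed by CD68 (r = 0.74), SNX8 (0.72) and F12 (0.72), and no other transcript of the macrophage list was among its 3 closest. For SNX8, r ranged from 0.42 inside SEA to 0.98 inside CTRL. IL18R1 was followed by DGAT2 (0.90), TIAM2 (0.89) and KIAA0226L (0.89), each with an r over 0.8 inside all 3 groups. None of these 3 was called between groups by limma (lowest adjusted p 0.108). In SEA against CTRL they were still higher by 1.74, 1.83 and 2.25 in that order, beside 2.75 for IL18R1. Whether their differences depart from that of IL18R1 was not tested. Arrays share slides and the spread in signal strength, so these values carry no test.

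Covariation of the receptors inside groups was tested over 10 pairs of transcripts in 3 groups, 30 relations, by two-sided permutation tests that were exact in CTRL and SEA. The 1 relation that passed an adjusted p of 0.05 was that between the 2 IL6ST readings in SEA (r = 0.99, rho = 0.98, exact permutation p = 7.44e-05, adjusted p = 0.00223), which share their oligonucleotide. Of the 27 relations between different genes none passed, and 9 had an unadjusted p below 0.05, the lowest adjusted p being 0.0655. These counts hold each pair with IL6ST by both readings of its oligonucleotide, so they are not counts of distinct gene pairs. With IL6ST as 1 probe there were 18 relations, and the lowest adjusted p of the permutation test was 0.142.

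In SEA, r was positive for each pair of IL4R, IL6ST and IL18R1, with no pair past the adjusted threshold. SEA replicates 2 and 6 were among the 3 highest horses in all 3 genes and SEA replicate 1 among the 2 lowest. IL4R and IL18R1 had r = 0.75 and rho = 0.81 (n = 8, exact permutation p = 0.0299 and 0.0218, adjusted p = 0.132 and 0.143). Without the 2 horses farthest from the IL4R median, SEA replicates 5 and 6, r was 0.89. IL4R and IL6ST had r = 0.73 and rho = 0.76 on the mean of both readings (n = 8, exact permutation p = 0.0390 and 0.0368, adjusted p = 0.142 and 0.165 over 18 relations), and r was 0.86 without the same 2 horses. IL6ST and IL18R1 had r = 0.73 and rho = 0.74 (n = 8, exact permutation p = 0.0394 and 0.0458, adjusted p = 0.142 and 0.165). For this pair r was 0.38 without IL18R1's 2 farthest horses, SEA replicates 1 and 2. Without the 2 horses farthest in IL6ST it was 0.69 by ENSECAT00000021352 (SEA replicates 2 and 8) and 0.41 by ENSECAT00000021367 (SEA replicates 1 and 8). IL10RA did not follow the others, with r between -0.40 and 0.20. Taken as deviations from the slide means, r was 0.71 for IL4R and IL18R1, 0.67 and 0.61 for IL4R and the 2 IL6ST readings, and 0.53 and 0.50 for IL18R1 and these readings, and single slides held at most 3 SEA arrays, too few for a value of their own.

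In CTRL the relation of IL4R to IL6ST had the other sign. For ENSECAT00000021367, r was -0.92 and rho -0.93 (n = 7, exact permutation p = 0.00437 and 0.00675, adjusted p = 0.0655 and 0.101), -0.79 without CTRL replicates 2 and 5, and -0.76 as deviations from the slide means, but -0.34 with normexp. On the mean of both IL6ST readings r was -0.84 (n = 7, exact permutation p = 0.0188, adjusted p = 0.142), and -0.48 without these 2 horses. Whether CTRL and SEA differ in this relation was not tested. ENSECAT00000021352 and IL10RA had r = -0.83 and rho = -0.61 in CTRL (n = 7, exact permutation p = 0.0302 and 0.167, adjusted p = 0.132 and 0.385). This relation rests on CTRL replicates 2 and 7, without which r was -0.02.

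In MEA, IL4R and IL18R1 had r = 0.71 and rho = 0.55 (n = 10, permutation p = 0.0237 and 0.105, adjusted p = 0.132 and 0.262), and 0.80 as deviations from the slide means. It rests mostly on MEA replicate 3, without which r was 0.39, while without MEA replicate 9 it was 0.69. Without both of these horses r was 0.24. ENSECAT00000021352 and IL10RA had r = 0.65 and rho = 0.32 (n = 10, permutation p = 0.0438 and 0.366, adjusted p = 0.132 and 0.732), and r was 0.23 without MEA replicates 4 and 7. Without MEA replicate 7 alone r was 0.16, and without MEA replicate 4 alone it was 0.71. IL4R and IL6ST had r = -0.06 and 0.20 in MEA by the 2 readings, and whether the groups differ in this was not tested.

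**Figure D5:**
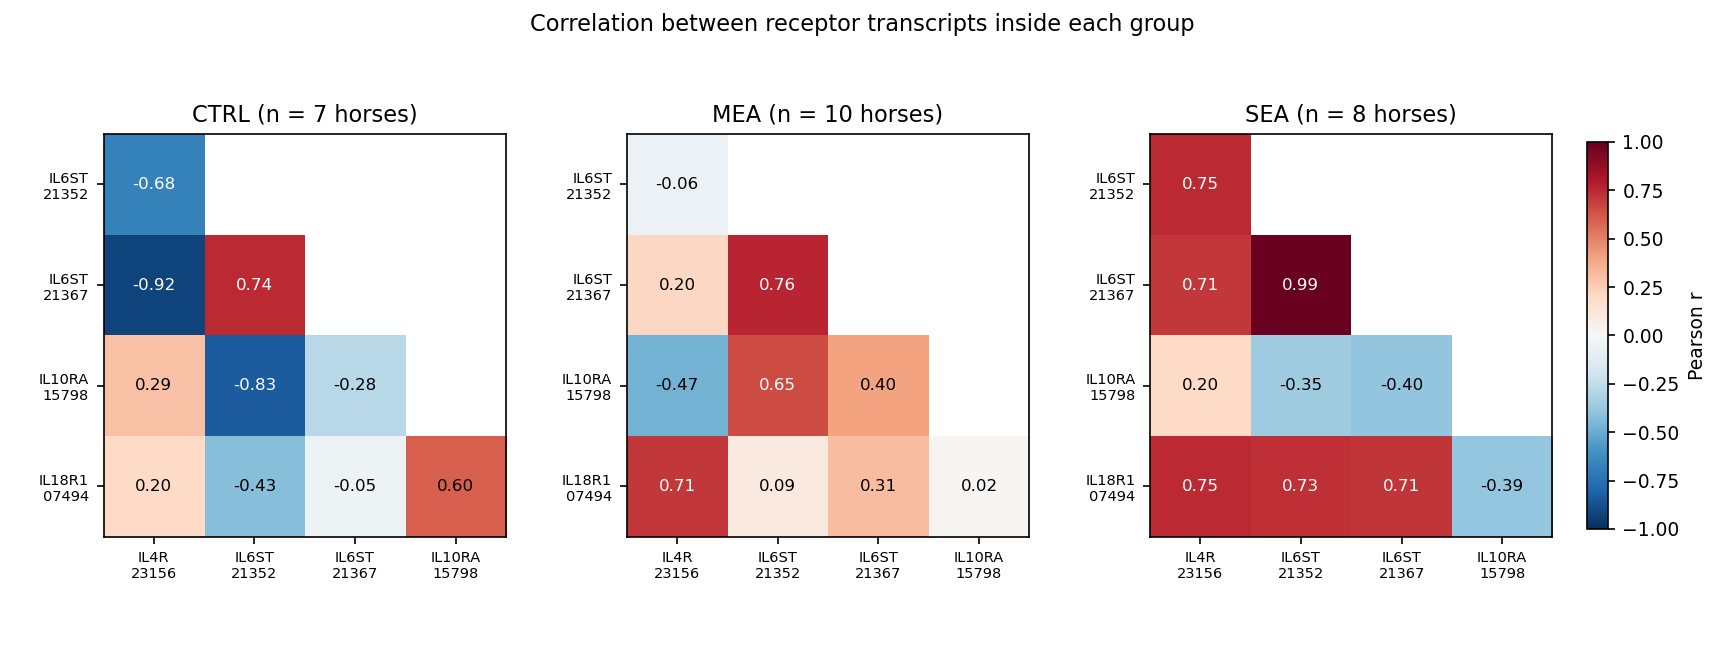
Pearson r between each pair of receptor transcripts inside the CTRL (n = 7), MEA (n = 10) and SEA (n = 8) groups, from -1 (blue) to 1 (red), with the last 5 digits of the identifiers. In SEA the 5 squares that join IL4R, IL6ST and IL18R1 lie between 0.71 and 0.75, whereas in CTRL those of IL4R and IL6ST are -0.68 and -0.92; none of these passed the adjusted threshold.

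In the study's cytology the neutrophil percentages of CTRL, MEA and SEA did not overlap, and neutrophils were the main cell in SEA alone. Group differences in the receptors can therefore not be told apart from the neutrophil share. Relations of the receptors to this percentage were examined inside SEA and inside MEA only, which cannot test the differences between groups, 10 relations in all. None passed an adjusted p of 0.05, and the lowest unadjusted p was 0.177. In SEA, r lay between -0.53 and -0.16 (n = 8, exact permutation tests), and in MEA between -0.17 and 0.20 (n = 10, permutation tests), with an adjusted p of at least 0.795 throughout. IL6ST had the strongest value in SEA (ENSECAT00000021352, r = -0.53 and rho = -0.50, exact permutation p = 0.177 and 0.216), and r was -0.00 without the 2 horses farthest from the median percentage. The neutrophil marker CSF3R did not follow the percentage in 2 horses. MEA replicate 3 had the highest CSF3R level of all arrays (13.87) without the highest percentage of its group. SEA replicate 1 had the lowest CSF3R level of SEA (5.96), inside the CTRL range, without the lowest percentage of its group. The reason was not tested.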

How the data were processed

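One-color arrays, each of 1 horse, measured RNA of BAL cells in 7 CTRL, 10 MEA and 8 SEA horses, grouped by the diagnosis in the labels. For each array the authors deposited the fluorescence intensity of every spot, joined from 2 scans and corrected for background and spatial trends within the array by Agilent's software, with no normalization between arrays. They also deposited a table of intensities normalized over all arrays by cyclic loess (R 2.11.1 per the labels), used here as an alternative, whose log2 values correlated with those used here at 0.999.

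The analysis of the deposited intensities used limma 3.58.1 in R 4.3.3, with version 1.17.8 of data.table. Log2 values were normalized over the 25 arrays by cyclic loess (span 0.7, 3 iterations), because the study did so. The 2 spots of a transcript were averaged. Spots with an outlier flag of the scanner software, 0 to 23 of 14476 per array and among the receptors 3 spots of IL4R, were left out of the average. Transcripts below 4.5 in at least 19 arrays were excluded, which left 4930. The methods give this limit without a scale, and it was taken as log2, so the set tested here can differ from that of the study. Low signals are the ones most affected by background correction, which bears on IL18R1. Groups were compared with lmFit and eBayes on the arrays of the groups compared, and Benjamini-Hochberg adjustment ran over all 4930 transcripts. The study's rank-based test was replaced by limma and kept as an alternative. Correlations were tested in Python 3.11.15 with numpy 2.4.6 and scipy 1.17.1 by listing all pairings, or with 1e+05 resamples in MEA, and adjusted over each family. The steps were tested on simulated data.

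Symbols came from the study's lists of changed transcripts (1865 transcripts), and cell percentages and sex from its cytology table. Receptors, gene lists, tests and alternatives were chosen with earlier results of these data known. Named are the 5 receptor transcripts, their direct partners, ligands and inhibitors, the 2 largest rises and falls called among the rest of the partner list, the 3 transcripts most alike each receptor, cell type markers (some neutrophil markers are not reported here), and transcripts that a count of 5 or fewer singles out, the last chosen after their values were seen. Alternatives were quantile normalization, division by each array's 75th percentile, normexp (offset 50) as the background correction, the authors' values, no filter, a filter on spots above background in at least 7 arrays, a rank sum test, array weights, limma's robust fit with a trend, an adjusted p below 0.05, no fold limit, all arrays in 1 fit, sex or epithelial percentage as covariates, slide, scan date or replicate number as a block, and each horse left out. Chosen after the data were seen were 1 value per probe sequence, the arrays of slide 4 left out, the share of spots above background as a covariate, flagged spots kept, and IL6ST as 1 probe. No 2 arrays held identical values.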

Additional observations from a re-analysis of the deposited data

Results flagged for a closer look

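Of 60 groups of values tested for an outlying horse, 11 held one whose gap to the next horse was large for the range of its group, and chance flags about 1 in 20 groups. None of these was a receptor transcript. Of the 11, 7 were MEA replicate 3, the highest MEA-affected horse each time, with CSF3R at 13.87, IL18RAP at 7.91, IL18_HORSE at 13.92, OSM at 13.35, SOCS3 at 9.03 and 9.96 by its 2 transcripts and TNFRSF1B at 12.10. SEA replicate 1 was the outlying low horse for IL18RAP at 1.37 and OSM at 7.17, SEA replicate 6 for STAT5A at 3.94, and CTRL replicate 1 for IL10RB at 11.75.

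The effects of SEA and of MEA, each against CTRL, differed by the direct test for IL18R1, which was 2.62 higher in SEA than in MEA (8 of 8 SEA-affected horses above the MEA mean, limma adjusted p = 0.0709). The same test passed for CLCF1, at 1.56 higher in SEA (limma adjusted p = 0.0715). CLCF1 passed the intensity filter only through its SEA arrays, so its call is not independent of that filter.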

How the results depend on the processing

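In SEA against CTRL all alternatives left IL4R, both IL6ST transcripts and IL18R1 called and IL10RA uncalled. The IL10RA difference was positive in all of them, from 0.07 to 0.54, which is below the fold limit. Its limma adjusted p fell as low as 0.0420 with 1 horse left out. In MEA against CTRL, where 2 receptor transcripts were called, 1 was called with scaling to the 75th percentile, the authors' values, no filter, the filter on spots above background, array weights, an adjusted p below 0.05, all 25 arrays in 1 fit, sex as a covariate, 1 value per probe sequence and without slide 4. It was 0 with normexp background correction, the epithelial percentage as a covariate and the slide, scan date or replicate block, and 1 to 3 with each horse left out. Between SEA and MEA, where 1 was called, the count was 0 with the 75th percentile, normexp, the rank sum test, an adjusted p below 0.05, the slide, scan date or replicate block and without slide 4. It was 2 with the authors' values, all 25 arrays in 1 fit and sex, 5 with array weights, and 0 to 3 with each horse left out. IL18R1 in MEA against CTRL (0.14) turned negative with normexp (-0.0529), array weights (-0.59) and the epithelial covariate (-0.83), and ranged from -0.32 to 0.57 with each horse left out. The 1 correlation past the threshold in SEA, that of the 2 IL6ST readings, missed it without the 2 horses farthest from the median, where r was still 0.98. With IL6ST as 1 probe this pair does not exist, and none of the other pairs passed. The count in SEA was 1 or 2 with each horse left out (2 without SEA replicate 7, IL6ST with IL18R1). In MEA this count was 0 or 1 (1 without MEA replicate 8, the IL6ST pair).

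Calls over all transcripts ran from 780 (normexp) to 1823 in SEA against CTRL (1612), from 0 (epithelial covariate) to 952 (array weights) in MEA against CTRL (482) and from 0 (75th percentile, normexp, slide block, replicate block, without slide 4) to 822 (array weights) between SEA and MEA (110). The causes were not tested. Replicate numbers carry no pairing in the labels, and same-numbered horses did not deviate together (median r of -0.10, 0.14 and -0.05 in the 3 comparisons). The replicate block gave 1360, 138 and 0 calls. Signals near background, as for IL18R1, and the disagreement of spots on slide 4 limit the smaller differences.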
